A study of Sus scrofa with 8 samples.

Results

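The genes described here encode the proteins of the cytosolic ribosome, measured in lung tissue from 2 pig breeds, Tibetan and Duroc, each kept at a high and at a low site. Members were array probes outside the controls whose gene symbol began with RPL or RPS and a digit, or was RPSA, RPLP0, RPLP1 or RPLP2, without the RPS6K kinases. By this name rule 60 probes were found among 43603, and 59 of them, for 32 genes, passed the criterion of lying well above background on 1 array or more, which in fact they did on all 8. The remaining probe, for RPL22, was well above background on 0 arrays. Of the 59 probes, 50 were named by the RefSeq accession they were designed on and 4 by a table of regulators, and these 54 probes for 30 genes are counted below. The regulator table was held in shortened form, ordered by a regulator score of the study, and 1 of its 4 probes, for RPS19, was also in the table ordered by breed differences, so these 4 were not free of selection. The other 5 were named only by tables that the study had ordered or restricted by its own test results, and they are described separately, with no test.

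Each group was 2 female pigs aged 6 months, with 1 single-color array per pig. TH were Tibetan pigs reared at 3500 m and DL were Duroc pigs reared at 40 m. TL were Tibetan pigs moved to the low site at 1 month of age, and DH were Duroc pigs moved to the high site at the same age. TH and DL pigs were therefore at the altitude of their origin, and TL and DH pigs had been moved. The values are log2 expression as deposited by the authors, on a scale with the same distribution on every array, and 34406 probes were tested.

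A ribosome joins a small subunit, where the codons of the messenger RNA are read, with a large subunit, where the peptide bond is made. Each subunit is a core of ribosomal RNA covered by proteins that are encoded by single genes scattered over the genome, and most of the proteins are needed in equal numbers. Their messenger RNAs are among the most abundant of most tissues, and many carry a pyrimidine tract at the start through which the growth-regulating kinase mTOR controls their translation. Many of these genes have processed pseudogenes of similar sequence. Whether the probes also bind transcripts of such copies was not tested.

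Facts of the whole series bear on these values in several ways. More probes were well above background on the TL arrays (31641 and 31723) than on the 6 others (26466 to 29319). One slide held the arrays of TH and DL, and the other slide those of DH and TL, the pigs that had been moved. The interaction of breed and altitude therefore cannot be told apart from the slide or from the move, whereas each breed and each altitude lay on both slides. The probes lay near the upper end of the scale, with mean log2 values of 14.93 to 19.17 apart from a single RPS19 probe at 9.83, against a highest value of 19.44 on the array. Of the 54 probes, 53 were read from the scan of low gain on all 8 arrays, and 0 spots were saturated. Surfactant genes that define lung were bright on all arrays (SFTPC 18.55 to 19.04), and 6 of the 11 lung markers had a named probe. In a bulk tissue, fewer cells of a type and less RNA per cell cannot be told apart. The p-values compare groups against how far the 2 arrays within each group lay apart, and the number of arrays limits their precision.

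Ribosomal protein expression varied little over the 8 arrays. The most common departure was a lower value in TL, which many other probes of the array shared. For the 54 probes the difference between the highest and the lowest array had a median of 0.42 log2 units (0.08 to 1.68), and 32 spanned less than 0.5. TL was the lowest of the 4 groups for 34 of the 54 probes and the highest for 4. Neither these counts nor the spans were taken over all tested probes. Both TL arrays were below all 6 others for 27 of the 54 probes, against 36.9% of all tested probes and 47.0% of the 3005 tested probes that were designed on a RefSeq accession. Among the brightest 5% of tested probes it was 35.3%. Both were above all others for 2 probes, against 26.6% of all tested probes, 13.7% of those designed on a RefSeq accession and 21.0% of the brightest 5%. Whether the members differ in this from probes of like design or brightness was not tested.

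**Figure D1:**
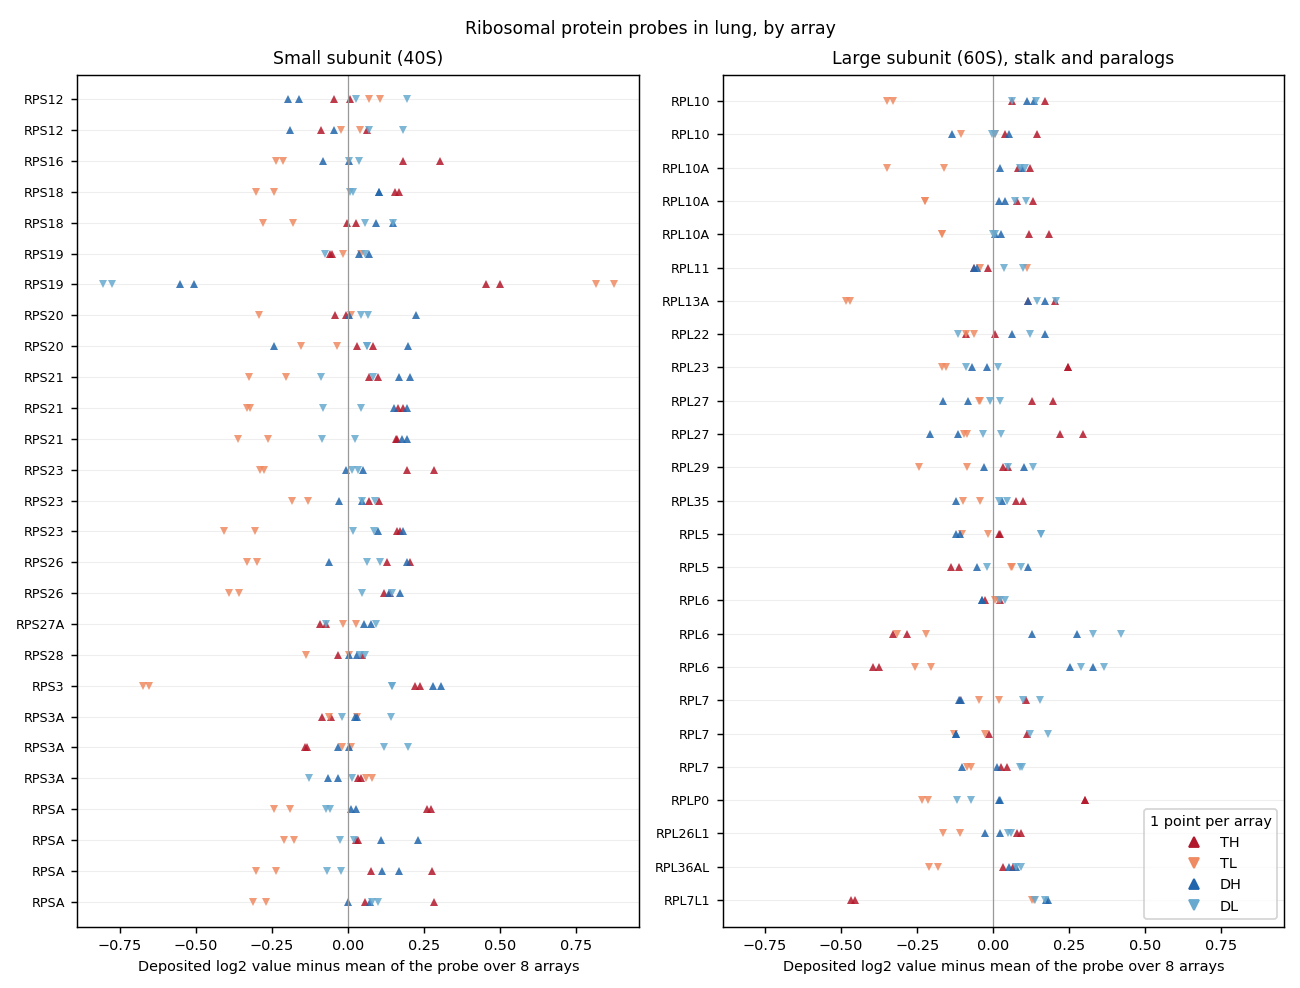
Deposited log2 value on each of the 8 arrays minus the mean of the probe (x axis, log2 units), with 1 row per probe and 1 point per array (2 of the counted probes are not drawn), for the small subunit (left) and the large subunit, the stalk and the paralogs (right). The TL points lie at the left for most small subunit rows, the 2 TH points lie at the left for RPL7L1, and for both lower RPL6 rows the Tibetan and Duroc arrays are apart.

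The plot of all members by array shows where the spread came from. From TL to TH the median difference over the 54 probes was 0.22 log2 units, positive for 39 probes and negative for 15. In Duroc pigs the difference between the high and the low site, DH minus DL, had a median of -0.02, with 23 probes positive and 31 negative. Between the breeds at the low site, TL minus DL had a median of -0.19, and 49 of the 54 probes were negative. At the high site, TH minus DH had a median of 0.04. On the slide that held DH and TL, TL minus DH had a median of -0.18, negative for 40 of 54 probes, and on the other slide TH minus DL had a median of 0.01.

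In the two-way limma fit with Benjamini-Hochberg adjustment over all tested probes, few members passed the threshold of the study, an FDR below 0.0001. The breed effect, which is the mean of the Tibetan groups minus that of the Duroc groups, passed for 4 of the 54 probes (7.41%) against 27.4% of all tested probes. It was higher for 1 member, in RPS19 (12.8% of all tested probes), and lower for 3, in RPS3, RPL7L1 and RPL6 (14.6%). The altitude effect, high minus low, passed for 3 members (5.56%) against 26.3%, higher for RPS3 and RPLP0 (14.0% of all) and lower for RPL7L1 (12.2%). The interaction, the TH minus TL difference less that of DH and DL, passed for 2 members (3.70%) against 28.4%, positive for RPS3 (14.9% of all) and negative for RPL7L1 (13.5%). Among the brightest 5% of tested probes the shares were 19.3%, 22.9% and 14.5%. Over the 50 probes named by accession alone the counts were 3, 3 and 2, since the RPS19 probe drops out. A value that misses this threshold was not thereby shown to be equal between groups: at an FDR below 0.05 the same fit called 23, 30 and 30 members, against 71.6%, 70.8% and 73.7% of all tested probes.

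The sizes of the effects differed less between probes than on the array as a whole. The median breed effect was -0.08 over the members and -0.07 over all tested probes, the median altitude effect was 0.09 and 0.01, and the median interaction was 0.25 and 0.21. A breed effect over 0.5 in size was found for 3 of 54 members against 43.6% of all tested probes. For altitude this was 1 of 54 against 41.6%, and for the interaction 8 of 54 against 68.2%. Among the brightest 5% of tested probes, where most members lie, the share was far smaller than on the whole array for all 3 effects. For the interaction it was 25.6%. Much of the narrower range was thus shared by bright probes. Whether the members differ from probes of like brightness in the size of their effects was not tested. Whichever array was removed, the RPS19 breed effect was the call that remained among the members, at a probe that the table ordered by breed differences also lists. In those fits 6.51% to 10.4% of all tested probes were called for breed, 3.57% to 6.96% for altitude and 7.78% to 11.3% for the interaction.

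**Figure D2:**
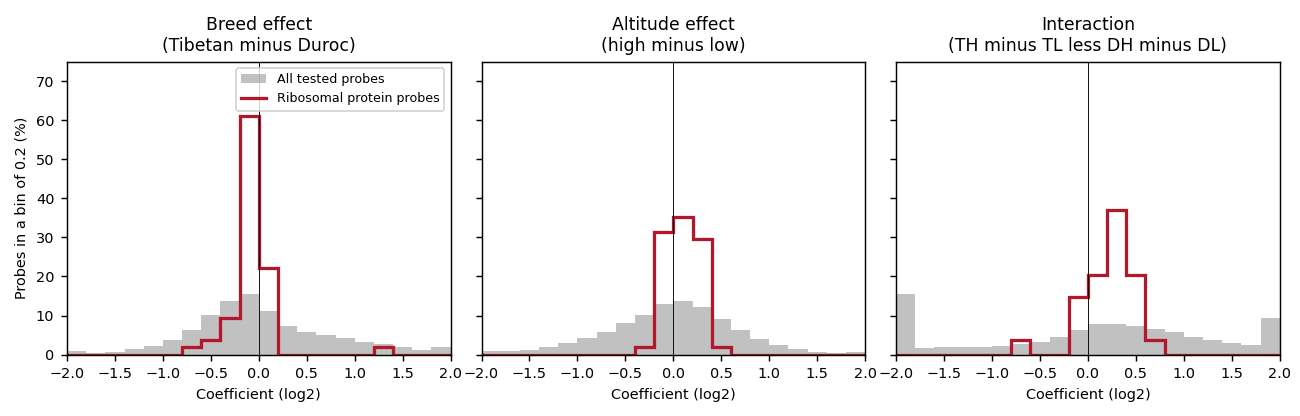
Distribution of the breed effect, the altitude effect and the interaction (x axes, log2 units), as the percentage of probes in bins of 0.2, for all tested probes (grey) and for the 54 ribosomal protein probes (red line); values beyond the axis are counted in its outermost bins. The red lines stand within a narrower range than the grey area, with 33 of 54 breed effects in the bin just below 0 and 20 of 54 interactions between 0.2 and 0.4.

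The distributions of the 3 effects show the members as a narrow peak inside the wider one of the array. Without the TL arrays, in a fit of breed and altitude, the breed effect is TH minus DH and the altitude effect is DH minus DL. These are not the effects of the full fit, and each compares arrays of different slides. In this fit 0 members passed for either effect, against 0.663% of all tested probes for breed and 0.0% for altitude. The medians were 0.04 for breed and -0.02 for altitude. At an unadjusted limma p under 0.05 there were 17 members for each, which was not counted over all tested probes.

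How much lower the members were in TL depended on how the arrays were scaled, whereas the direction of their median was the same on the 3 scales compared. On the deposited scale the median of the 54 probes was 17.92 and 17.95 on the TL arrays and 18.04 to 18.11 on the 6 others. In the processed signals of the scanner software without scaling between arrays it was 17.80 and 17.88 in TL and 18.03 to 18.15 elsewhere, while the median over all tested probes was 9.34 and 9.39 in TL and 8.46 to 8.59 elsewhere. When these signals were divided by the 75th percentile of each array, the members had medians of 6.66 and 6.70 in TL and 7.34 to 7.51 elsewhere. The median member was lowest on the TL arrays on all 3 scales, and the gap was widest on the last.

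**Figure D3:**
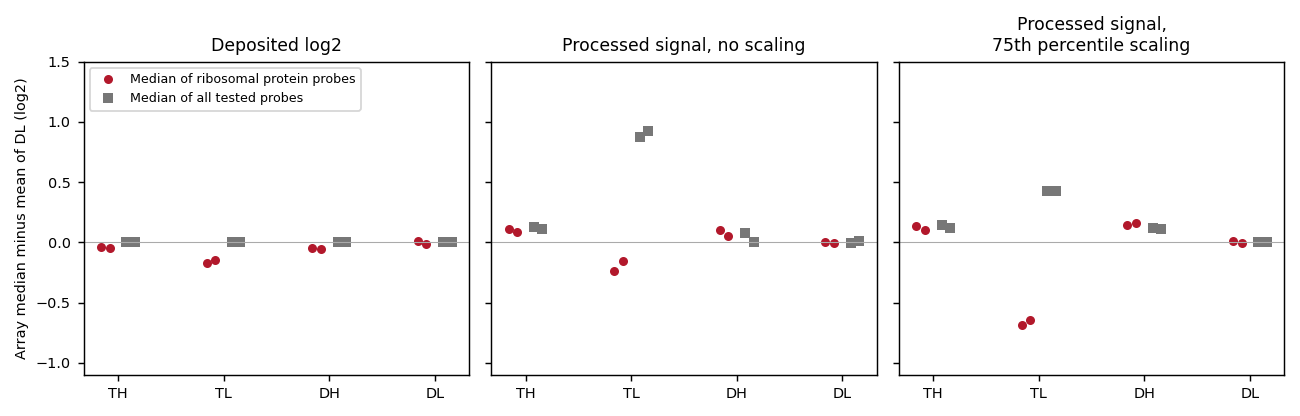
Median over the 54 ribosomal protein probes (red circles) and over all tested probes (grey squares) on each array, minus the mean of the 2 DL arrays (y axis, log2 units), on the deposited scale, for processed signals without scaling, and after scaling to the 75th percentile. Red circles for TL are below 0 in each panel, and grey squares for TL are above 0 in the last 2 panels.

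The plot by scale shows members and array moving apart in TL where arrays were not forced to a common distribution. With scaling to the 75th percentile limma called 16 breed effects (1 higher and 15 lower), 23 altitude effects, all of them higher, and 13 interactions (12 positive and 1 negative) among the 54 probes, against 33.1%, 30.4% and 32.5% of all tested probes. On the deposited values these splits were 1 higher and 3 lower, 2 higher and 1 lower, and 1 positive and 1 negative. Without scaling they were 1 higher and 3 lower, 5 higher and 0 lower, and 0 positive and 1 negative, against 22.5%, 22.6% and 19.3%. From quantile-normalized raw intensity each effect had 1 call, in each case positive, against 19.5%, 17.6% and 21.2% of all probes. A local background correction gave 1 higher and 2 lower for breed and 1 positive call for each of the other effects, against 26.1%, 25.1% and 26.9%. The median interaction of all tested probes ranged from -0.07 without scaling to 0.34 with the 75th percentile, and that of the members from 0.25 on the deposited scale to 0.73 with the 75th percentile.

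Small subunit proteins were represented by 29 probes for 14 genes. Both TL arrays were below all others for 17 of the 29 (58.6%). This was so for 36.9% of all tested probes and 47.0% of those designed on a RefSeq accession. The probes of 9 of the 14 genes were all lowest in TL, a count that was not made over other genes. DH minus DL was positive for 18 of the 29.

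RPS3 lies where the messenger RNA enters the small subunit and has also been linked to DNA repair. Its probe A_72_P041136 had log2 values of 17.74 and 17.76 in TH, 16.85 and 16.87 in TL, 17.80 and 17.83 in DH, and 17.67 and 17.67 in DL. The TL arrays were lower than all others by a wide margin, and the other 3 groups lay close together without overlap. The breed effect was -0.44 (SE 0.02, adjusted p = 1.5e-05 from limma) and the altitude effect 0.52 (SE 0.02, adjusted p = 9.9e-06). The interaction was 0.74 (SE 0.03, adjusted p = 2.4e-05), with TH minus TL at 0.89 and TL minus DL at -0.81. None of the 3 calls survived the removal of any 1 array, with the interaction between 0.73 and 0.76. Without both TL arrays the breed effect, which is then TH minus DH, was -0.06. The altitude effect, then DH minus DL, was 0.15.

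RPSA, a small subunit protein also known as the laminin receptor, had 4 probes, and TL was lowest in each. The brightest, A_72_P004916, had 17.88 and 17.89 in TH, 17.64 and 17.68 in TL, 17.96 and 18.09 in DH, and 17.83 and 17.88 in DL, an interaction of 0.05 (SE 0.07). Its TL values were below and its DH values above all others, and TH lay just above DL. In A_72_P209232 the interaction was 0.51 (SE 0.11, adjusted p = 0.010), with 17.67 and 17.90 in TH against 17.30 and 17.34 in TL. The others had interactions of 0.40 (A_72_P004351) and 0.26 (A_72_P039131), so that the probes of this gene shared the lowest group and differed in the size of the interaction.

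RPS21 and RPS23 each had 3 probes, all lowest in TL. RPS23 sits at the decoding center, where codon and anticodon are matched. Its probe A_72_P146691 had 16.63 and 16.71 in TH, 16.14 and 16.16 in TL, 16.43 and 16.48 in DH, and 16.44 and 16.46 in DL. The interaction was 0.52 (SE 0.06, adjusted p = 5.9e-04). TH was above and TL below the Duroc arrays, which overlapped. The other RPS23 probes, among them the brightest (A_72_P254247), had interactions of 0.30 and 0.43. RPS21, a small protein on the solvent side of the subunit, had TH minus TL differences of 0.35 to 0.50 and altitude effects of 0.27 to 0.35, with the smallest adjusted p at 3.2e-04 for the former and 4.3e-04 for the latter.

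RPS26, which contacts the messenger RNA at the exit channel, had interactions of 0.50 (SE 0.13, adjusted p = 0.0166) and 0.45 (SE 0.06, adjusted p = 0.0013) in its 2 probes. The brighter, A_72_P350879, had 18.05 and 18.07 in TH, 17.54 and 17.57 in TL, 18.06 and 18.10 in DH, and 17.98 and 18.08 in DL. TL was apart and the other groups overlapped. RPS18, a protein of the head of the subunit, had 18.01 and 18.02 in TH, 17.55 and 17.61 in TL, 17.95 and 17.95 in DH, and 17.86 and 17.87 in DL at A_72_P360788, and its brighter probe A_72_P403068 had TH minus TL at 0.24. RPS16, another protein of the head, had 17.04 and 17.16 in TH, 16.62 and 16.64 in TL, 16.77 and 16.86 in DH, and 16.86 and 16.89 in DL at the probe designed on its RefSeq transcript, an interaction of 0.53 (SE 0.08, adjusted p = 0.0019). In each of these 3 genes TL was the lowest group and none of the probes reached the threshold for the interaction.

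In other small subunit genes the groups overlapped or differed in another order. RPS3A had 3 probes with interactions of -0.02, 0.04 and -0.04 and standard errors of 0.09, 0.05 and 0.07. RPS27A, whose product is made as a fusion with ubiquitin, had values of 18.79 to 18.97, and RPS28 had 19.02 to 19.21. The RPS20 probes spanned 0.52 and 0.44 log2 units over the arrays, with groups that overlapped and interactions of 0.06 and 0.24. RPS12, with values of 17.94 to 18.35 over its 2 probes, was lowest in DH in both, with DH minus DL at -0.29 and -0.24 and an altitude effect of -0.20 (adjusted p = 0.0106) at A_72_P014021. The brightest of these probes lie close to the top of the scale, and whether its ceiling narrows their differences was not tested.

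RPS19, the gene most often mutated in Diamond-Blackfan anemia, had 2 probes that did not behave alike. A_72_P129046 had values between 18.60 and 18.75 on all arrays and a breed effect of -0.04 (SE 0.04). A_72_P204312, the dim probe of the family, had 10.29 and 10.33 in TH, 10.65 and 10.71 in TL, 9.28 and 9.33 in DH, and 9.03 and 9.06 in DL. Its Tibetan arrays were all above its Duroc arrays, with a breed effect of 1.32 (SE 0.03, adjusted p = 2.7e-06 from limma). The interaction was -0.63 (SE 0.05, adjusted p = 1.9e-04). Both were named by the regulator table and not by an accession, the dim one is also in the table ordered by breed differences, and whether they bind the same transcript was not tested.

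Large subunit proteins were represented by 21 probes for 12 genes. Both TL arrays were below all others for 7 of the 21 (33.3%), against 36.9% of all tested probes and 47.0% of those designed on a RefSeq accession. The probes of 7 of the 12 genes were all lowest in TL. DH minus DL was positive for 3 of the 21 probes and negative for 18, the reverse of the small subunit. The median DH minus DL was -0.06 for the large and 0.05 for the small subunit, and the difference between the subunits was not tested.

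RPL13A, a protein known also for silencing inflammatory messenger RNAs when it leaves the ribosome, had 17.88 and 17.96 in TH, 17.28 and 17.29 in TL, 17.88 and 17.93 in DH, and 17.90 and 17.97 in DL. TL was lower than every other array and the other groups overlapped. The interaction was 0.67 (SE 0.06) and missed the threshold, with an adjusted p of 3.5e-04 from limma. It passed in 3 of 10 alternatives that kept all arrays, over which the adjusted p ranged from 4.1e-05 to 0.0020.

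RPL10 and RPL10A were also lowest in TL in all of their probes. RPL10, which joins the subunit late in its assembly near the peptidyl transferase center, had 17.87 and 17.98 in TH, 17.46 and 17.48 in TL, 17.92 and 17.94 in DH, and 17.87 and 17.95 in DL at A_72_P052661. At its brighter probe A_72_P061141, groups overlapped and the interaction was 0.18 (SE 0.11). The 3 probes of RPL10A, part of the mobile arm where spent transfer RNA leaves, had interactions of 0.30 to 0.39 and TH minus TL of 0.32 to 0.36. RPL23, at the face toward the small subunit, had 17.56 and 17.56 in TH, 17.14 and 17.16 in TL, 17.25 and 17.29 in DH, and 17.22 and 17.33 in DL. For RPL23, TH stood above and TL below, which was also the order of RPLP0, RPL26L1 and the counted RPS16 probe. The probes A_72_P146691 of RPS23, A_72_P004351 of RPSA, A_72_P360788 of RPS18 and A_72_P240262 of RPL10A had this order too. The other probes of these last genes did not.

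RPL27 was highest in TH and lowest in DH in both probes. At A_72_P321248 the values were 17.79 and 17.86 in TH, 17.47 and 17.48 in TL, 17.36 and 17.45 in DH, and 17.53 and 17.59 in DL, and the interaction was 0.51 (SE 0.07, adjusted p = 0.0014). Its brighter probe A_72_P086246 had an interaction of 0.34 (SE 0.06). RPL29, RPL35 and RPL22, each with 1 counted probe, had interactions of 0.26, 0.24 and -0.08 with standard errors of 0.10, 0.08 and 0.13. RPL22 has a known part in lymphocyte development.

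RPL6 had lower values in Tibetan pigs at 2 of its 3 probes, of which 1 passed the threshold. At A_72_P420374 the values were 16.60 and 16.62 in TH, 16.74 and 16.79 in TL, 17.25 and 17.32 in DH, and 17.29 and 17.36 in DL, so that all 4 Tibetan arrays were below all 4 Duroc arrays. The breed effect was -0.62 (SE 0.03, adjusted p = 3.3e-05 from limma). At A_72_P293449 the values were 16.89 and 16.94 in TH, 16.91 and 17.00 in TL, 17.35 and 17.50 in DH, and 17.55 and 17.64 in DL, again without overlap between breeds, with an effect of -0.57 (SE 0.05, adjusted p = 2.3e-04). The brightest probe, A_72_P124171, read 18.71 to 18.79 on all arrays, a breed effect of 0.01 (SE 0.02, adjusted p = 0.715). All 3 were designed on the RefSeq transcript of the gene, and whether a difference in sequence between the breeds lies under the first 2 was not tested. Without the TL arrays the breed effects of A_72_P420374 and A_72_P293449, which are then TH minus DH, were -0.68 and -0.51, and neither passed.

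RPL5 and RPL11 form a complex with the small ribosomal RNA of the large subunit and, when ribosome assembly fails, bind the ubiquitin ligase MDM2. RPL11 had values of 18.88 to 19.06, with an interaction of 0.05 (SE 0.08). RPL5 had 17.34 and 17.34 in TH, 17.22 and 17.31 in TL, 17.20 and 17.21 in DH, and 17.48 and 17.48 in DL at A_72_P175321, where DL was highest, and values of 18.43 to 18.68 with overlapping groups at the brighter A_72_P211462. The 3 RPL7 probes had interactions of 0.25, 0.25 and 0.40 and altitude effects of -0.11 to -0.01.

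RPLP0 forms the base of the stalk to which elongation factors bind, and its probe was the only stalk probe named here. Its values were 16.10 and 16.10 in TH, 15.56 and 15.58 in TL, 15.82 and 15.82 in DH, and 15.68 and 15.72 in DL. The 4 groups did not overlap, and in both breeds the high site was higher. The altitude effect was 0.32 (SE 0.02, adjusted p = 5.8e-05 from limma), with TH minus TL at 0.53 and DH minus DL at 0.12, and the interaction was 0.41 (SE 0.04, adjusted p = 3.0e-04). The altitude call did not survive the removal of any 1 array, with effects of 0.31 to 0.33, and without both TL arrays the effect was 0.12.

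**Figure D4:**
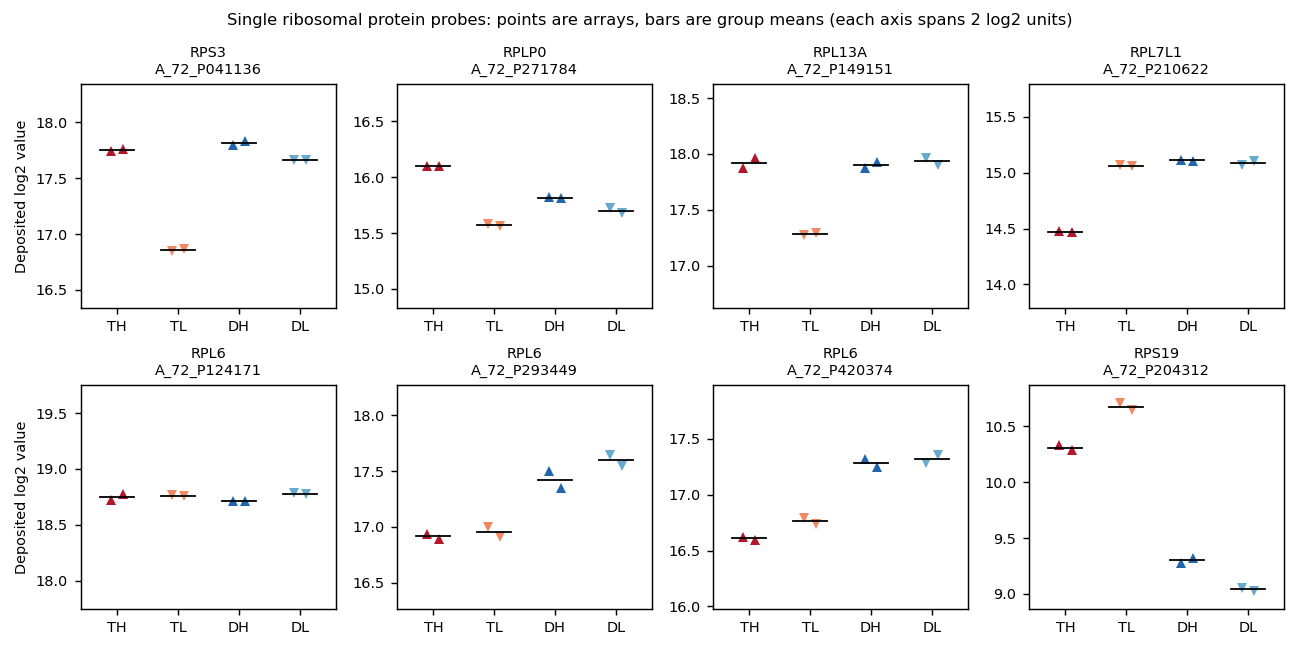
Deposited log2 values (y axis, each spanning 2 log2 units) of 8 single probes in TH, TL, DH and DL, with 1 point per array and bars at the group means. RPS3 and RPL13A are low in TL, RPL7L1 is low in TH, 2 of the RPL6 probes are lower in both Tibetan groups while the third is level, and the dim RPS19 probe is higher in both Tibetan groups.

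Among the paralogs, genes that resemble a ribosomal protein gene, RPL7L1 had a course of its own. RPL7L1 resembles RPL7 and acts in the nucleolus in the assembly of the large subunit. It had 14.47 and 14.48 in TH, 15.06 and 15.07 in TL, 15.11 and 15.12 in DH, and 15.07 and 15.10 in DL, so that TH was apart, as the plot of single probes shows. The breed effect was -0.33 (SE 0.02, adjusted p = 3.6e-05) and the interaction -0.62 (SE 0.03, adjusted p = 4.4e-05). The altitude effect of -0.28 (SE 0.02, adjusted p = 6.3e-05) became 0.13 with scaling to the 75th percentile, where the interaction was -0.0031. Both other paralogs were lowest in TL. RPL36AL, a close copy of RPL36A, had 17.53 and 17.56 in TH, 17.29 and 17.32 in TL, 17.55 and 17.57 in DH, and 17.57 and 17.59 in DL. RPL26L1, a close copy of RPL26, had 15.34 and 15.36 in TH against 15.10 and 15.16 in TL.

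The 5 probes named only by the result tables are given as a description, since those tables list probes by their differences. They were dimmer, with mean log2 values of 9.01 to 12.31, and spanned 1.71 to 2.94 log2 units over the arrays. The probes for RPS16 (A_72_P127531), RPL11 (A_72_P191886) and RPS27L (A_72_P248242), a paralog of RPS27, were highest in TL, with interactions of -1.99, -1.27 and -2.45. Those for RPL30 (A_72_P170221) and RPL35 (A_72_P385723) were lowest in TL, with 1.07 and 1.64. For RPS16, RPL11 and RPL35, the probe designed on the RefSeq transcript had interactions of 0.53, 0.05 and 0.24, so that the sign was opposite in RPS16 and RPL11. Which of the probes reports the gene was not tested.

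Genes that work with the ribosome in translation were also measured. The counts of the lists below left out probes named only by the result tables. These were 6 for the initiation factors, 5 for ribosome biogenesis, 4 for growth control, 3 for lymphocytes and 0 for the elongation and related genes. Counted probes were named by accession or by the regulator table, which was ordered by a score of the study. Those named by the regulator table, as all 4 of EEF1G, were not free of selection. Of the listed elongation and related genes, 5 had a counted probe (EEF1A1, EEF1G, EEF2K, ETF1 and TPT1), 21 probes in all. Limma called 4 higher and 1 lower (EEF2K) at high altitude, against 14.0% and 12.2% of all tested probes. All 4 higher probes were those of EEF1G, a subunit of the factor that recharges eEF1A, which was singled out after its values were seen. At A_72_P393183 they were 17.12 and 17.12 in TH, 16.36 and 16.38 in TL, 16.97 and 17.00 in DH, and 16.37 and 16.40 in DL. High-altitude arrays were above low-altitude arrays in both breeds at all 4 probes, with effects of 0.55 to 0.70 and adjusted p of 6.6e-06 to 5.9e-05. When each array was left out in turn, each of these probes was called in 0 to 2 of 8 fits, with effects of 0.53 to 0.72. EEF1A1 and TPT1, whose messenger RNAs carry the same pyrimidine tract, had altitude effects of -0.16 to 0.05 over 8 probes and -0.23 to 0.03 over 4 probes, and 0 of these passed.

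**Figure D5:**
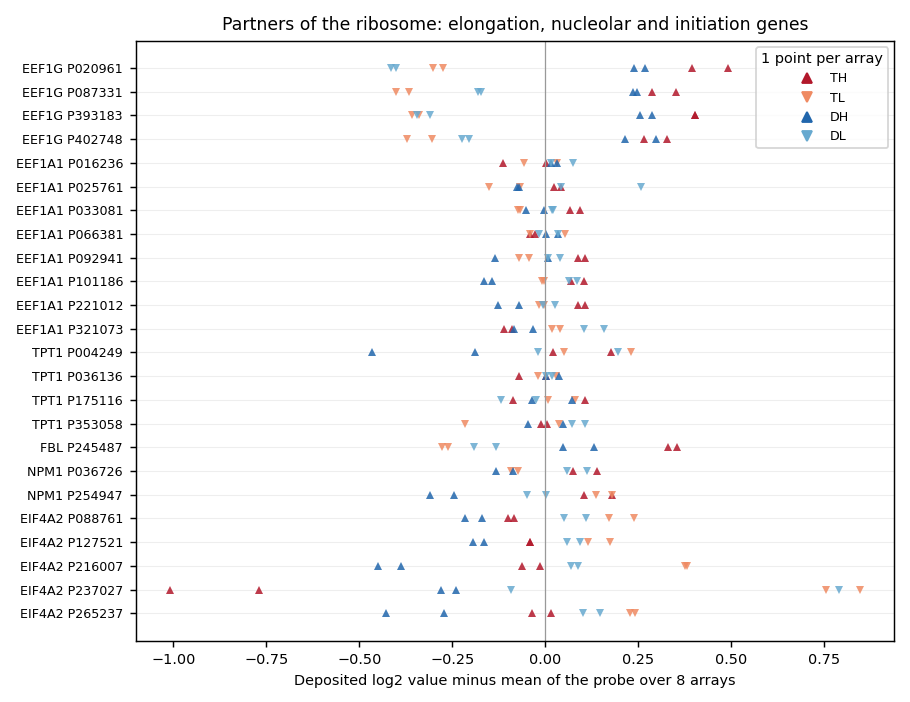
Deposited log2 value on each array minus the mean of the probe (x axis, log2 units) for probes of EEF1G, EEF1A1, TPT1, FBL, NPM1 and EIF4A2, with 1 point per array. All 4 rows of EEF1G have both high-altitude groups at the right and both low-altitude groups at the left, whereas the EEF1A1 and TPT1 rows are mixed.

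EEF2K, the kinase that slows elongation by phosphorylating eEF2, had probes that disagreed, with interactions of 1.94, 1.35 and -0.39, the last at the brightest. The plot of the partner genes also holds FBL, the nucleolar RNA methyltransferase fibrillarin, with 16.04 and 16.06 in TH, 15.43 and 15.45 in TL, 15.76 and 15.84 in DH, and 15.52 and 15.58 in DL. Of the ribosome biogenesis list 10 genes with 13 probes were counted. Both TL arrays were below all others for 7 of these probes, against 36.9% of all tested probes, and limma called 4 higher and 1 lower at high altitude, against 14.0% and 12.2%. The largest interactions belonged to TAF1D (-1.89), DDX21 (1.34) and NIP7 (1.22), of which NIP7 passed (adjusted p = 9.3e-06 from limma). The TAF1D probe was dim, with 4.02 to 4.47 in TH, TL and DL and 6.21 and 6.26 in DH, so that DH was the group apart. In processed signals without scaling the NIP7 value was 0.52 (adjusted p = 2.7e-04), and NIP7 was called in 0 of 8 fits with 1 array left out. Its probe named only by a result table was highest in TL, with 11.70 and 11.74 against 9.53 to 9.70 on the others. TAF1D and this DDX21 probe, A_72_P164776, missed the threshold, with adjusted p of 4.9e-04 and 0.0170. Their values were -0.52 with a local background and 0.55 without scaling. Without DL replicate 1 the value of A_72_P164776 was 0.98 and without DL replicate 2 it was 1.69. The brighter DDX21 probe, A_72_P004146, had an interaction of 0.97 and passed (adjusted p = 1.6e-05 from limma).

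Initiation factors did not share a direction. Of 34 counted probes for 13 genes, both TL arrays were below all others for 15 and above all others for 13, against 36.9% and 26.6% of all tested probes. EIF4G3, a scaffold of the cap-binding complex, held both extremes, from -4.19 (A_72_P096786, adjusted p = 1.6e-06) to 1.71 (A_72_P238857). EIF2S1, a subunit of the factor that brings the initiator transfer RNA, had 1.51 at A_72_P182926 (adjusted p = 1.2e-05) and -0.02 at its brightest probe. The larger value was 0.85 (adjusted p = 3.9e-04) without scaling and was called in 2 of 8 fits with 1 array left out. EIF4A2, a helicase of the same complex, had an interaction of -1.08 at a dim probe (adjusted p = 0.0646), which was -0.64 without DL replicate 1 and -1.52 without DL replicate 2. Its 4 brighter counted probes had interactions of -0.02, 0.07, 0.08 and 0.23.

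The growth control genes act on ribosomal protein messenger RNAs or answer to failed ribosome assembly. In this list both TL arrays were below all others for all 8 counted probes of 6 genes. The share was 36.9% of all tested probes and 47.0% of those designed on a RefSeq accession. At the brighter MTOR probe the higher TL array read 13.7972 and the lowest other array 13.7979. The 4 probes left out, for RHEB and RPS6KB1, had the opposite order, with both TL arrays above all others, as RHEB with 11.82 and 11.83 in TL and 8.97 to 9.39 elsewhere. EIF4EBP2, a repressor of cap-dependent translation that mTOR inactivates, had 14.44 and 14.53 in TH, 12.91 and 12.95 in TL, 13.57 and 13.59 in DH, and 13.80 and 13.80 in DL. Its interaction was 1.77 (adjusted p = 6.3e-06) and was called in 3 of 8 fits with 1 array left out. MDM2, a ubiquitin ligase to which free ribosomal proteins bind, had an interaction of 0.80 (adjusted p = 1.7e-05) on the deposited values, which was 0.11 (adjusted p = 0.149) without scaling and was called in 0 of 8 fits with 1 array left out. MYC and the brighter MTOR probe had smaller gaps between TH and TL, and all their Duroc arrays lay above the Tibetan ones. The MTOR values were 13.80 and 13.87 in TH, 13.73 and 13.80 in TL, 14.09 and 14.20 in DH, and 14.14 and 14.17 in DL. MYC had 12.65 and 12.65 in TH, 12.55 and 12.56 in TL, 12.99 and 13.09 in DH, and 13.09 and 13.15 in DL. Its breed effect of -0.48 passed the threshold (adjusted p = 8.2e-05 from limma).

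The genes most like the members in their course over the arrays were sought by Pearson's r with the mean of the 50 probes named by accession, among 4055 probes with a symbol. The highest were RRAGA, SOX18, CCND2, GRK7 and TLK2, with r between 0.995 and 0.996 over 8 arrays. All 5 were low in TL and level elsewhere, as SOX18 with 9.27 and 9.28 in TL and 10.93 to 11.15 on the others, and r rests on that step. The member mean itself was 17.69 and 17.71 in TL and 17.89 to 17.92 elsewhere.

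Markers of other cells differed between the groups too. Lymphocytes are known for a high share of ribosomal protein messenger RNA. Of 17 T and B cell markers, 9 genes with 13 probes were counted, and both TL arrays were below all others for 9 of the 13 probes, against 36.9% of all tested probes. Their mean log2 value was 8.90 and 8.92 in TL, 9.41 and 9.42 in DL, 9.99 and 10.01 in DH, and 10.40 and 10.46 in TH. Limma called 10 of the 13 higher at high altitude and 0 lower, against 14.0% and 12.2% of all tested probes. Of the 3 probes left out, that of CD5 was highest in TL (12.28 and 12.30). The neutrophil list was measured by PGLYRP1 alone, with 14.53 and 14.54 in TH, 10.89 and 10.89 in TL, 11.59 and 11.60 in DH, and 11.15 and 11.15 in DL, so that TH was the group apart. Macrophage, endothelial and smooth muscle lists had means of 14.75 and 14.77, 12.37 and 12.38, and 13.88 and 13.92 in TL, each within the range of the other arrays. They had 5, 12 and 4 counted probes. For breed limma called 0, 1 and 0 higher and 3, 6 and 1 lower, against 12.8% and 14.6% of all tested probes. For altitude it called 0, 1 and 0 higher and 1, 5 and 0 lower, against 14.0% and 12.2%. Interactions were positive for 0, 2 and 0 and negative for 4, 1 and 0, against 14.9% and 13.5%. The part of these cells in the ribosomal protein values was not tested.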

How the data were processed

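Lung RNA of 8 pigs was labeled with 1 dye and hybridized to Agilent arrays. The submitters' notes name Agilent Feature Extraction 9.1, whereas the scanner file headers name version 10.7.3.1, as do the methods. The authors deposited scanner files, which hold the intensity of each spot as a processed signal, already background-subtracted, and a series table in log2 units that the methods describe as RMA-normalized and that has 1 common distribution on all arrays. Spearman's rho between that table and the processed signal was at least 0.99999 on each array. Members and lists were chosen with earlier results of these data known.

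Breed, altitude and their interaction were fitted on the deposited log2 values by limma 3.58.1 in R 4.3.3. Probes well above background on at least 1 array entered, with Benjamini-Hochberg adjustment and the FDR threshold of 0.0001 of the methods. The fit was tested on simulated data. Symbols came from RefSeq accessions of the array design or the study's regulator table, which was shortened and ordered by its score. Probes were named where the interaction was among the 10 largest or 5 smallest, among the 5 brightest or dimmest genes, for paralogs, for genes with several probes, for 9 chosen genes, and for the largest interactions of related lists. RPS6 had no named probe. Results for some of these genes are not reported here.

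Replicate numbers were checked for pairing: deviations of same-numbered arrays correlated between -0.04 and 0.09, so they were not treated as pairs. Alternatives covered scaling, background, dim probe filters, thresholds, moderation, blocks and left-out arrays. Tables and figures were made with Python 3.11.15, pandas 2.3.3 and matplotlib 3.10.9. Sequences and coordinates of probes were not used here.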

Additional observations from a re-analysis of the deposited data

Results flagged for a closer look

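On the deposited values of RPS3, TH minus TL exceeded DH minus DL by 0.74 log2 units, and limma's interaction term passed the threshold. With each array left out in turn the value was 0.73 to 0.76 and the call was lost in all 8 fits. The term also passed for RPL7L1, with an interaction of -0.62, where TH was the group apart. That call too was lost in all 8 fits with 1 array left out, and its value was -0.0031 after division by the 75th percentile (adjusted p = 0.933). Both interactions are the same contrast as the 2 slides and as moved against unmoved pigs, and these cannot be told apart.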

How the results depend on the processing

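On the deposited values 4 breed effects, 3 altitude effects and 2 interactions were called among the members, and the cause of the changes below was not tested. In that order, raw intensity with quantile normalization gave 1, 1 and 1 calls, scaling to the 75th percentile 16, 23 and 13, and processed signals without scaling, added after seeing the data, 4, 5 and 1. A local background with an offset of 50 gave 3, 1 and 1, and an FDR below 0.05 gave 23, 30 and 30. A filter on all 8 arrays gave 6, 6 and 5 (48.5%, 48.9% and 49.1% of all tested probes), and no filter 4, 1 and 2 (23.9%, 22.9% and 24.9%). An FDR below 0.01 gave 16, 21 and 23 (61.5%, 60.1% and 63.7%), and an intensity trend 6, 10 and 7 (38.3%, 37.4% and 39.7%). The replicate number as a block, which the pairing check did not bear out, gave 1, 0 and 0 (8.39% to 11.9% of all tested probes). With each array left out in turn, the median over the members was -0.10 to -0.05 for breed, 0.07 to 0.11 for altitude and 0.25 to 0.30 for the interaction. Leaving out both TL arrays, also added after seeing the data, gave 0 breed and 0 altitude effects (0.663% and 0.0% of all tested probes). There the breed effect is TH minus DH and the altitude effect DH minus DL. Setting outlier spots missing, no moderation, the slide as a block and members named by accession kept the counts within 1 call. Of all tested probes, 27.6%, 26.4% and 28.6% were called with outlier spots missing, and 16.4%, 15.3% and 16.5% without moderation. With the slide block 27.4% and 26.3% were called for breed and altitude, and it could not be fitted for the interaction. For the flat RPL6 probe A_72_P124171 the breed effect was -0.29 with the 75th percentile, -0.027 without scaling and -0.0044 to 0.021 with each array left out, below 0 without TH replicate 2. For RPL7L1 the altitude effect was 0.13 with the 75th percentile and 0.025 without both TL arrays. All counted members were well above background on every array, and whether the top of the scale limits them was not tested.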
